A study of Mus musculus with 22 samples.

Results

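The genes of de novo fatty acid synthesis were followed in inguinal white fat of cold-exposed and thermoneutral mice with and without PPARα. They were 10 of the 22180 genes measured: the regulators Srebf1 and Mlxipl, the enzymes Acly, Acaca, Acacb, Fasn, Scd1, Elovl6 and Me1, and Thrsp. They were listed by name for their known place in the pathway, and each was read from the single array probe set that carried its symbol alone. Genome-wide arrays were hybridised with RNA of 1 mouse each, 22 in all. The 4 groups were PPARα-null mice at 5 °C (5 arrays), PPARα-null mice at 28 °C (6 arrays), wild-type mice at 5 °C (5 arrays) and wild-type mice at 28 °C (6 arrays). The study asks whether PPARα, the fatty acid receptor encoded by Ppara, is needed when cold turns this depot towards heat production.

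All mice were males of 3 to 4 months on a C57BL/6 background, fed chow, and all spent 5 weeks at 28 °C, which is thermoneutral for mice. The groups at 28 °C then stayed there, whereas the groups at 5 °C spent 1 week at 21 °C and then 10 days at 5 °C. The labels call the mutants PPARα-null, PPARα knockout or PPARα−/− and name no tissue-specific driver. They give 10 mice housed per group, without saying how those for the arrays were picked. Array medians ran from 4.63 to 4.77 log2 units, and any 2 arrays correlated at 0.966 to 0.990 over the genes.

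De novo lipogenesis turns carbohydrate carbon into fatty acids. Acly, ATP citrate lyase, makes cytosolic acetyl-CoA from citrate that left the mitochondria. The acetyl-CoA carboxylases Acaca and Acacb make malonyl-CoA, Fasn, the fatty acid synthase, builds palmitate from it, and Elovl6 and Scd1 elongate and desaturate the product. Me1, the cytosolic malic enzyme, supplies NADPH. SREBP-1c (from Srebf1) and ChREBP (from Mlxipl) are the insulin-linked and sugar-linked transcription factors of the pathway, and brown fat is known to raise both fatty acid synthesis and fatty acid burning in the cold.

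Promoters are shown for the regulator Mlxipl, which has known alternative starts, for Fasn, the synthase, and for Thrsp, the member closest to Mlxipl between mice. The windows come from RefSeq on build GRCm38.p6 and run from 250 bases before a transcription start to 50 after it. Of the 10 genes 9 had a window, 13 windows in all, and Scd1 is named only. Capitals mark matches, on either strand, to 3 motifs: TCACNCCAC, a form of the sterol regulatory element bound by SREBPs, CACGTG, the E-box core, and CCAAT, the box bound by NF-Y, which reads ATTGG on the opposite strand. For Mlxipl the upstream start on the plus strand at chr5:135089640-135089939 is the known start of the short ChREBP-β form, and the downstream start at chr5:135106641-135106940 that of ChREBP-α. Fasn is shown at chr11:120824498-120824797 and Thrsp at chr7:97417501-97417800, both on the minus strand.
Mlxipl, upstream start: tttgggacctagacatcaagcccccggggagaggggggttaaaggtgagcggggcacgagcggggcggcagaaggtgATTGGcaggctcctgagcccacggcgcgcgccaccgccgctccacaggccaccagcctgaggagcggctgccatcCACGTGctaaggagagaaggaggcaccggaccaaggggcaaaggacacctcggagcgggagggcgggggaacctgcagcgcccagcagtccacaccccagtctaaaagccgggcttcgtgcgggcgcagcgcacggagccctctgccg
Mlxipl, downstream start: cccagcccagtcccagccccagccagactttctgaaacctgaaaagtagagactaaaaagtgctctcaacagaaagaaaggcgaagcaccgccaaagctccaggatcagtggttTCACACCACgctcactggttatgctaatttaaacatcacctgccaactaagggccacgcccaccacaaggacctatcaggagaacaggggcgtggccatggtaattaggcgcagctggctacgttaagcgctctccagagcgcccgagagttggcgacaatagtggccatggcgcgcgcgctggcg
Fasn: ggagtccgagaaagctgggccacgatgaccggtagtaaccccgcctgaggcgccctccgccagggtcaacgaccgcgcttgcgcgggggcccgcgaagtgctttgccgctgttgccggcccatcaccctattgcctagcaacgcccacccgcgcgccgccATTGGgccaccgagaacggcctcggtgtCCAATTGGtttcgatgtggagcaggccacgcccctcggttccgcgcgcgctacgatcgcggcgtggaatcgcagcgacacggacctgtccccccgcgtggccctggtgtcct
Thrsp: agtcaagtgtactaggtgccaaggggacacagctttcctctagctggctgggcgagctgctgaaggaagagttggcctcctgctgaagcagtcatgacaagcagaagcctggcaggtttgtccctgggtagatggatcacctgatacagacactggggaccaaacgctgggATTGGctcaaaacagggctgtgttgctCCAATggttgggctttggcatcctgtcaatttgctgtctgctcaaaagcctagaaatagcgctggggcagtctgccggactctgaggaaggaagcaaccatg

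CACGTG stood in 1 of the 13 windows, that of the upstream Mlxipl start, at position −98 relative to the start. TCACNCCAC stood in 1 window, that of the downstream Mlxipl start, at −136. CCAAT stood in 8 windows of 7 genes, namely Acacb, Acly, Fasn, Me1, Mlxipl, Srebf1 and Thrsp. Fasn held 3 CCAAT matches, at −90, −62 and −59, of which the matches at −62 and −59 overlap on opposite strands. Over all 32851 windows of 27025 genes, 1.24% held TCACNCCAC, 7.15% held CACGTG and 37.4% held CCAAT. These matches are descriptions of the letters, and the arrays, with 1 probe set for Mlxipl, do not separate its starts.

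Most of the pathway was higher in the cold in both genotypes. Of the 10 genes, 8 rose in null mice and 8 rose in wild-type mice, and they were the same genes: Mlxipl, Acly, Acaca, Acacb, Fasn, Elovl6, Me1 and Thrsp. A gene was called at a limma adjusted p under 0.05 over all genes. Of all 22180 genes, 6.88% were called higher in the cold in null mice and 8.35% in wild-type mice. No member fell in either genotype, whereas 6.33% of all genes fell in null mice and 8.3% in wild-type mice. Averaged over the genotypes the same 8 rose, against 11.7% of all genes. The median log2 change of the 10 members was 0.61 in null and 0.66 in wild-type mice, against −0.00 in null and 0.01 in wild-type mice over all genes tested. Srebf1 and Scd1 did not pass in either genotype. When only the groups compared were fitted, 5 members were called in null mice, without Acaca (limma adjusted p = 0.0641), Fasn (0.0774) and Mlxipl (0.0589). Quantile normalization left 6 members called in wild-type mice, without Acaca (limma adjusted p = 0.0598) and Fasn (0.0554). With the muscle and lymphocyte marker means as covariates, Mlxipl was lost in null mice (limma adjusted p = 0.0538) and Acaca (0.0605) and Fasn (0.0531) in wild-type mice. In bulk tissue, fewer cells of a type and less RNA per cell cannot be told apart, nor can more of either.

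**Figure D1:**
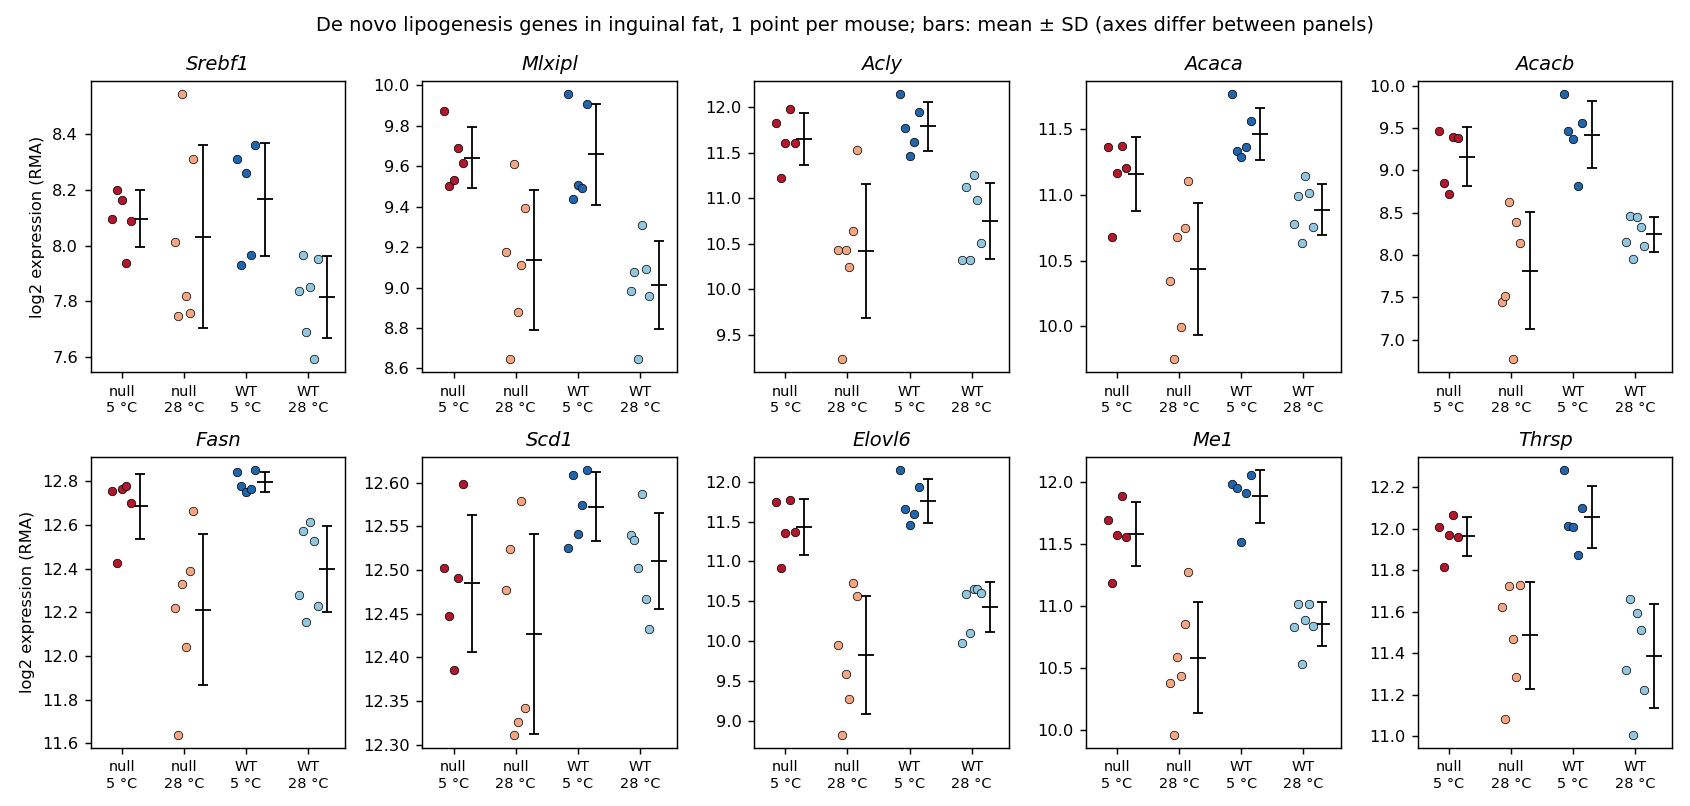
Log2 expression of the 10 lipogenesis genes, 1 point per mouse, by genotype and housing temperature, with the mean and SD of each group as bars beside the points and an axis of its own for each gene. Acacb, Elovl6 and Thrsp separate the 5 °C mice from the 28 °C mice in both genotypes, the null mice at 28 °C are the most spread group in every panel, and the Scd1 panel spans less than the others.

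Elovl6, the elongase that turns palmitate into stearate, had the largest change. It stood at 11.75, 10.92, 11.36, 11.78 and 11.37 log2 units in null mice at 5 °C, against a lowest of 8.83, a median of 9.77 and a highest of 10.73 in null mice at 28 °C. In wild-type mice it stood at 12.15, 11.66, 11.45, 11.59 and 11.93 at 5 °C, against a lowest of 9.97, a median of 10.60 and a highest of 10.66 at 28 °C. In both genotypes every cold mouse lay above every thermoneutral mouse. The log2 change was 1.61 in null mice (SE 0.27, limma adjusted p = 0.000191) and 1.33 in wild-type mice (SE 0.27, limma adjusted p = 0.00106), which is 3.04-fold and 2.51-fold in signal. Groups that did not overlap, with all cold mice above, were seen for 3 of the 10 members in null mice (Acacb, Elovl6 and Thrsp) and for the same 8 called members in wild-type mice. Of all genes 5.05% in null and 6.27% in wild-type mice had such groups.

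The carboxylases both rose. Acacb encodes the isoform at the mitochondrial outer membrane, whose malonyl-CoA is known to restrain fatty acid entry into mitochondria. Its values were 9.46, 8.85, 8.72, 9.39 and 9.38 in null mice at 5 °C, against a lowest of 6.77, a median of 7.83 and a highest of 8.63 in null mice at 28 °C. In wild-type mice they were 9.90, 9.47, 9.37, 8.82 and 9.56 at 5 °C, against a lowest of 7.95, a median of 8.24 and a highest of 8.47 at 28 °C. The groups were separate in both genotypes, with changes of 1.35 (SE 0.26, limma adjusted p = 0.000823) in null and 1.18 (SE 0.26, limma adjusted p = 0.00219) in wild-type mice.

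Acaca encodes the cytosolic carboxylase that feeds fatty acid synthase. It gave 11.36, 10.68, 11.16, 11.38 and 11.21 in null mice at 5 °C, against 9.75 to 11.10 with a median of 10.51 in null mice at 28 °C. In wild-type mice it gave 11.77, 11.34, 11.29, 11.37 and 11.56 at 5 °C, against 10.63 to 11.15 with a median of 10.88 at 28 °C. Replicate 2 of the null mice at 5 °C lay within the range of the null mice at 28 °C, whereas the wild-type groups were separate. The changes were 0.72 in null (SE 0.19, limma adjusted p = 0.0116) and 0.58 in wild-type mice (SE 0.19, limma adjusted p = 0.0375). The wild-type call was lost in 6 of the 11 fits that left out an array of those groups, with changes of 0.50 to 0.63.

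Acly, which makes the acetyl-CoA, and Me1, which makes NADPH, both rose in each genotype. Acly read 11.83, 11.22, 11.61, 11.98 and 11.61 in null mice at 5 °C, against a lowest of 9.24, a median of 10.43 and a highest of 11.53 in null mice at 28 °C. In wild-type mice it read 12.14, 11.77, 11.47, 11.62 and 11.94 at 5 °C, against a lowest of 10.32, a median of 10.75 and a highest of 11.25 at 28 °C. Replicate 6 of the null mice at 28 °C, the highest there, lay above 1 null mouse at 5 °C. Its change was 1.23 in null (SE 0.27, limma adjusted p = 0.00322) and 1.04 in wild-type mice (SE 0.27, limma adjusted p = 0.00987).

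Me1 had 11.69, 11.19, 11.57, 11.89 and 11.56 log2 units in null mice at 5 °C, against 9.97 to 11.28 with a median of 10.51 in null mice at 28 °C. In wild-type mice it had 11.98, 11.96, 11.52, 11.91 and 12.06 at 5 °C, against 10.53 to 11.02 with a median of 10.87 at 28 °C. The wild-type groups were separate and the null groups overlapped by 1 mouse on each side. Changes were 1.00 in null (SE 0.17, limma adjusted p = 0.000285) and 1.03 in wild-type mice (SE 0.17, limma adjusted p = 0.000160), 1.99-fold and 2.04-fold in signal.

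Fasn, the synthase itself, changed less on this scale. It gave 12.76, 12.42, 12.76, 12.78 and 12.70 in null mice at 5 °C, against 11.64 to 12.66 with a median of 12.27 in null mice at 28 °C. In wild-type mice it gave 12.84, 12.78, 12.75, 12.77 and 12.85 at 5 °C, against 12.16 to 12.62 with a median of 12.40 at 28 °C. The cold wild-type mice lay close to each other and above all thermoneutral ones, while 1 cold null mouse fell inside the thermoneutral range. The changes were 0.47 in null (SE 0.13, limma adjusted p = 0.0181) and 0.40 in wild-type mice (SE 0.13, limma adjusted p = 0.0391). The wild-type call was lost in 8 of 11 fits that left out an array, with changes of 0.35 to 0.44.

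Scd1, the desaturase that makes oleate and palmitoleate, did not pass. Its values ran from 12.39 to 12.60 in null mice at 5 °C, against 12.31 to 12.58 in null mice at 28 °C, and from 12.53 to 12.61 in wild-type mice at 5 °C, against 12.43 to 12.59 at 28 °C. The groups overlapped nearly throughout. Its change was 0.06 in each genotype (SE 0.06, limma adjusted p = 0.644 in null and 0.572 in wild-type mice), with 95% intervals of −0.07 to 0.19 in null and −0.07 to 0.19 in wild-type mice. The highest value of any gene on any array was 13.26, so Fasn and Scd1 were read near the top of the scale, and whether their signals were compressed there was not tested.

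Thrsp, the thyroid hormone responsive protein long linked to lipogenic tissues, was separate between temperatures in both genotypes. It gave 12.01, 11.81, 11.97, 12.07 and 11.96 in null mice at 5 °C, against 11.08 to 11.73 with a median of 11.55 in null mice at 28 °C. In wild-type mice it gave 12.28, 12.01, 12.01, 11.88 and 12.10 at 5 °C, against 11.01 to 11.66 with a median of 11.41 at 28 °C. Every cold mouse of a genotype therefore exceeded every thermoneutral mouse of that genotype. The changes were 0.48 in null (SE 0.12, limma adjusted p = 0.0108) and 0.67 in wild-type mice (SE 0.12, limma adjusted p = 0.000453).

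The regulators moved unequally. Mlxipl read 9.87, 9.50, 9.53, 9.69 and 9.62 in null mice at 5 °C, against 8.65 to 9.61 with a median of 9.14 in null mice at 28 °C. In wild-type mice it read 9.95, 9.44, 9.50, 9.49 and 9.90 at 5 °C, against 8.65 to 9.31 with a median of 9.03 at 28 °C. Replicate 3 of the null mice at 28 °C lay among the cold null mice, and the wild-type groups were separate. Its changes were 0.51 in null (SE 0.15, limma adjusted p = 0.0257) and 0.65 in wild-type mice (SE 0.15, limma adjusted p = 0.00351). The null call was lost in 4 of 11 fits that left out an array, with changes of 0.41 to 0.60.

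Srebf1 had 8.10, 8.20, 8.16, 7.94 and 8.09 log2 units in null mice at 5 °C, against 7.75 to 8.54 with a median of 7.92 in null mice at 28 °C. In wild-type mice it had 8.31, 7.93, 8.26, 7.97 and 8.36 at 5 °C, against 7.59 to 7.97 with a median of 7.84 at 28 °C. The groups overlapped in both genotypes, and the highest value of all was that of replicate 3 of the null mice at 28 °C. The change was 0.06 in null (95% interval −0.20 to 0.33, limma adjusted p = 0.827) and 0.35 in wild-type mice (95% interval 0.08 to 0.62, limma adjusted p = 0.0669). In wild-type mice it passed in 5 of 10 other settings, with changes of 0.29 to 0.40 over all 10, and in the 1 of 11 fits that left out replicate 2 at 5 °C (0.41, limma adjusted p = 0.0464). The probe set does not separate SREBP-1c from SREBP-1a.

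Cold effects were then set against each other between genotypes. In the test of the difference itself, null minus wild type, 0 of the 10 members passed in limma, as did 0% of the 22180 genes, and 5.13% of genes had an unadjusted p under 0.05. The differences ran from −0.29 for Srebf1 to 0.28 for Elovl6, with 5 of 10 above 0, and their 95% intervals reached from −0.67 to 1.06. For the 8 called members the interval did not reach the value that a complete loss of the wild-type cold effect would give. For Elovl6, for instance, it ran from −0.50 to 1.06 around a difference of 0.28, beside a wild-type effect of 1.33. For Acaca it ran from −0.41 to 0.70 and for Fasn from −0.31 to 0.46. For Srebf1 (−0.67 to 0.09) and Scd1 (−0.19 to 0.18) the interval did hold such a loss. Both cold effects of a gene share the same SE, so this outcome depends only on the null effect beside that SE. Every member called in null mice therefore had to meet it, and it adds nothing to those calls. The intervals are wide beside the smaller effects, so a p that missed the threshold does not show that the genotypes responded alike.

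**Figure D2:**
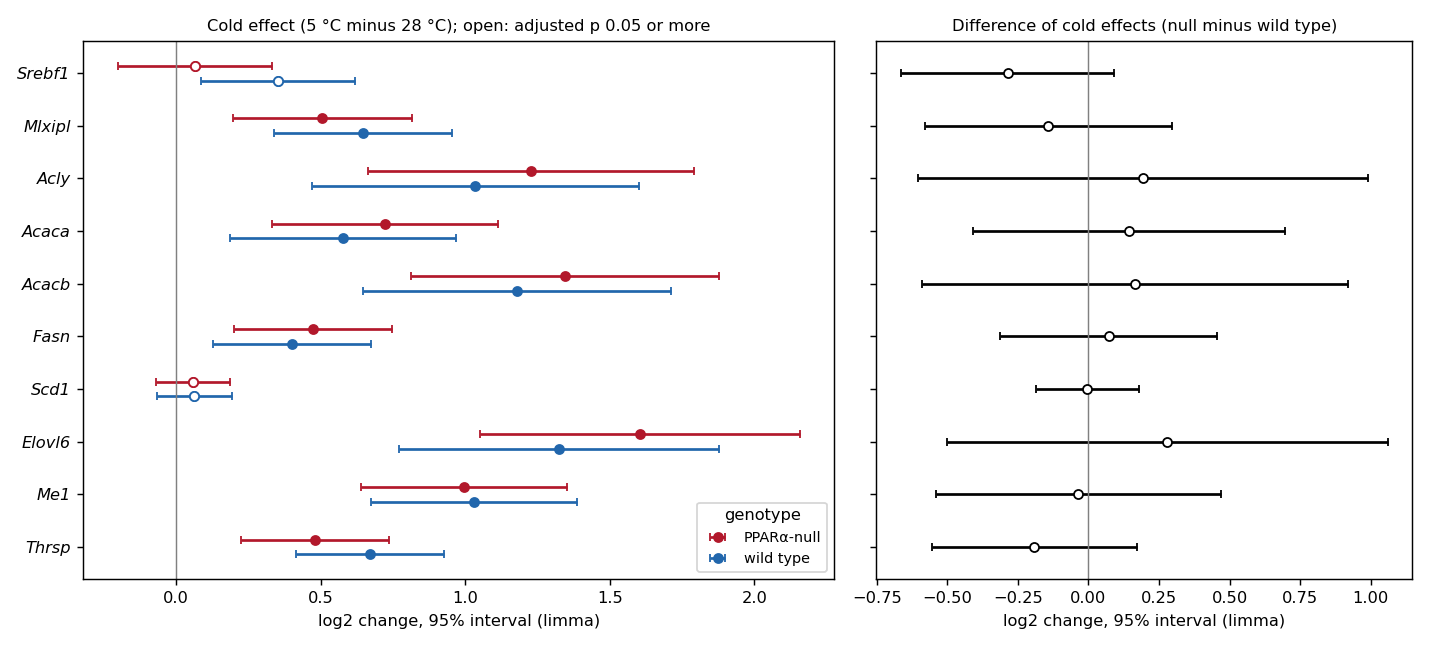
Left, log2 change from cold (5 °C minus 28 °C) of each gene in PPARα-null and wild-type mice with 95% intervals from limma, open symbols where the adjusted p was 0.05 or more; right, how far the null effect lies from the wild-type effect, null minus wild type. Filled pairs lie close to each other for 8 genes, Srebf1 and Scd1 are open in both genotypes, and every interval on the right crosses 0.

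Genotype comparisons at a fixed temperature gave no called member. At 5 °C all 10 members were lower in null than in wild-type mice, with changes of −0.33 (Elovl6) to −0.02 (Mlxipl) and a median of −0.13, and 0 passed in limma, against 0.149% of all genes. None of the 10 reached an unadjusted p under 0.05, which 6.65% of all genes did. At 28 °C 7 of 10 were lower in null mice, 0 passed against 0.194% of all genes, and 2 had an unadjusted p under 0.05, against 6.74% of all genes. Those were Elovl6, at 9.83 ± 0.74 in null and 10.43 ± 0.31 in wild-type mice (SD, n = 6 each; change −0.60, SE 0.25, limma adjusted p = 0.649), and Acaca, at 10.44 ± 0.51 in null and 10.89 ± 0.19 in wild-type mice (SD, n = 6 each; change −0.45, SE 0.18, limma adjusted p = 0.606). Srebf1, Mlxipl and Thrsp were the 3 members above 0, at 0.22, 0.13 and 0.10. Members of one pathway share their mice, so the common sign is not 10 separate observations, and the null and wild-type groups overlapped for all members at both temperatures. Of all genes, 0.568% were wholly above and 0.654% wholly below the wild-type mice in null mice at 5 °C, and 0.257% and 0.298% at 28 °C.

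Skeletal muscle markers varied between pads, and 0 of 9 passed between genotypes at either temperature. Their mean ran from 5.62 to 8.40 in null mice at 28 °C, against 7.07 to 9.10 in wild-type mice at 28 °C. At 5 °C it ran from 6.11 to 9.37 in null and from 5.98 to 9.81 in wild-type mice. With the muscle and the B and T cell marker means as covariates, the median change of the members at 28 °C was −0.12, against −0.23 without them. The part of tissue makeup in the members' values was not tested further.

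Variation between mice was largest in null mice at 28 °C for all 10 members. The median SD over members was 0.40 log2 units there, against 0.20 in wild-type mice at 28 °C. It was 0.20 in null mice at 5 °C and 0.21 in wild-type mice at 5 °C. This spread was shared among members: replicate 2 of the null mice at 28 °C was the lowest of its group for 8 of 10 members, and replicate 6 the highest for 5. Replicate 2 of the null mice at 5 °C was the lowest for 7, and replicate 3 of the wild-type mice at 28 °C for 7. The equality of the SDs was not tested, and the share of all genes most spread in null mice at 28 °C was not counted. Members vary together between mice, so the 10 are not separate observations.

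After each group's mean was subtracted, members were correlated over the 22 mice, with two-sided permutations within groups and adjustment over the 45 pairs. Of the 45 pairs 38 were positive, and 24 passed by Pearson's r and 29 by Spearman's rho, each of the 24 positive. The closest pair was Acly with Fasn, with r = 0.95 and rho = 0.90 (permutation p = 1e-05 each, the smallest the 100000 draws can give, adjusted p = 6.4e-05 and 7.5e-05). Without the 2 mice farthest from the median of Acly, r was 0.88. Acaca with Fasn had r = 0.93 and rho = 0.92 (permutation p = 1e-05 each, adjusted p = 6.4e-05 and 7.5e-05), and 0.88 without the 2 farthest mice. Mlxipl with Thrsp had r = 0.83 and rho = 0.83 (permutation p = 4e-05 and 6e-05, adjusted p = 0.0002 and 0.000242), and 0.76 without the 2 farthest. Among 17435 genes outside the list, 0 followed Acly or Fasn more closely than they followed each other. For the other members, the genes that followed more closely than the closest member numbered 1 for Thrsp, 2 for Elovl6, 4 each for Acaca and Me1, 13 for Mlxipl, 37 for Srebf1, 51 for Acacb and 3415 for Scd1.

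Within the 6 null mice at 28 °C Acly and Fasn had r = 0.97 and within the 6 wild-type mice at 28 °C r = 0.97, so the relation was present in both thermoneutral groups. By Pearson's r, Mlxipl passed with 8 of the other 9 members, Acaca with 7, Acly, Fasn, Me1 and Thrsp with 6 each and Elovl6 with 5. Of the 17435 genes outside the list, 0.499% (Scd1) to 2.52% (Acacb) reached the lowest passing r, 0.56, with a given member. By r, Acacb passed with 2, Mlxipl (r = 0.72) and Acaca (r = 0.73). By Spearman's rho it also passed with Acly (rho = 0.67, permutation adjusted p = 0.00115) and Fasn (0.70, 0.00194). The same held for Acacb with Elovl6 (0.69, 0.00799), Me1 (0.68, 0.00799) and Thrsp (0.52, 0.0426). Srebf1 passed with Mlxipl (r = 0.69, rho = 0.59, permutation p = 0.00602 and 0.0177, adjusted p = 0.0135 and 0.0306) and Thrsp (r = 0.56, rho = 0.55, permutation p = 0.0257 and 0.0261, adjusted p = 0.0482 and 0.0419), and without the 2 farthest mice r was 0.51 and 0.42. It did not pass with any enzyme, where r ran from −0.48 (Scd1) to 0.45 (Acacb). Scd1 passed with no member, with r from −0.48 to 0.19.

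**Figure D3:**
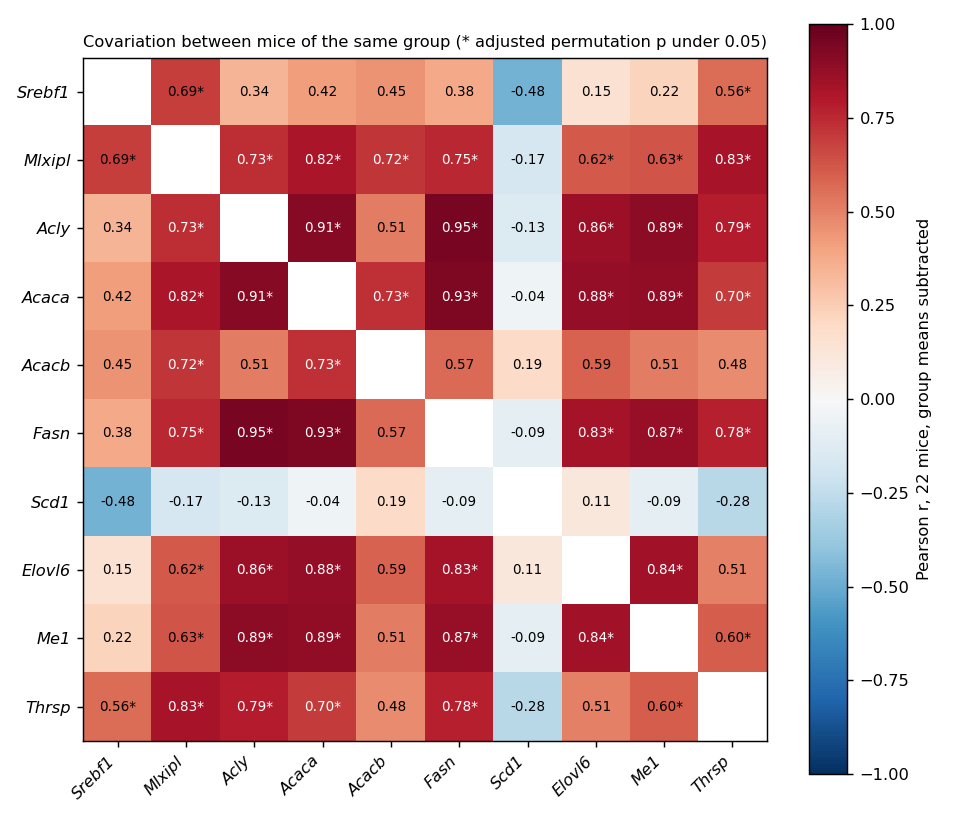
Pearson r between each pair of lipogenesis genes over 22 mice after the mean of each group was subtracted; the colour scale runs from −1 to 1 and asterisks mark pairs with an adjusted permutation p under 0.05. Acly, Acaca, Fasn, Elovl6, Me1, Mlxipl and Thrsp form a block of high values, and the Scd1 row is near or below 0.

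The genes outside the list that varied most like each member were ranked by Pearson's r over the same 22 group-centred arrays. The closest to Acaca was Pdhb (r = 0.95), a subunit of pyruvate dehydrogenase. It was also the closest to Acly (r = 0.94), ahead of the glycogen branching enzyme Gbe1 (r = 0.94) and the acetyl-CoA synthetase Acss2 (r = 0.93). For Fasn the closest was Gbe1 (r = 0.92), and for Me1 it was Acss2 (r = 0.93). Elovl6 was closest to Slc2a5 (r = 0.96), the fructose transporter, which itself changed in the cold by 2.09 in null (SE 0.39, limma adjusted p = 0.000641) and 1.79 in wild-type mice (SE 0.39, limma adjusted p = 0.00219). Mlxipl was closest to the complex III core subunit Uqcrc1 (r = 0.93), Acacb to the cytochrome oxidase subunit Cox4i1 (r = 0.85), Thrsp to the acyltransferase Agpat2 (r = 0.90) and Srebf1 to Pgls (r = 0.84), of the pentose phosphate pathway. Scd1 was closest to Ccdc27 at r = 0.76. These were picked as the highest of 17435 genes and carry no test.

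Most genes of acetyl-CoA, citrate and NADPH supply, and of mitochondrial fatty acid synthesis, were higher in the cold as well. Of all genes, 6.88% rose in null and 8.35% in wild-type mice. Of 8 genes that supply acetyl-CoA and citrate, 6 rose in null and 7 in wild-type mice and none fell, with median changes of 0.63 in null and 0.69 in wild-type mice. Citrate synthase Cs rose by 0.94 in null and 0.85 in wild-type mice (SE 0.09 each). Cytosolic malate dehydrogenase Mdh1 rose by 0.59 in null and 0.56 in wild-type mice, and the pyruvate dehydrogenase subunit Pdha1 by 1.10 in null and 0.93 in wild-type mice. The insulin-responsive glucose transporter Slc2a4 rose by 0.61 in null and 0.54 in wild-type mice. Of 8 measured NADPH genes, Me1's partners in reducing power, 6 rose in null and 7 in wild-type mice and none fell, with medians of 0.45 in null and 0.51 in wild-type mice. Of the pentose phosphate pathway, transaldolase Taldo1 rose by 0.76 in null and 0.80 in wild-type mice and the phosphogluconate dehydrogenase Pgd by 0.81 in null and 1.03 in wild-type mice. The mitochondrial malic enzyme Me3 rose by 0.95 in null and 0.84 in wild-type mice, and isocitrate dehydrogenase Idh1 by 0.40 in null and 0.44 in wild-type mice. Of 6 genes of mitochondrial fatty acid synthesis, the separate pathway that makes the lipoate precursor, 5 rose in null and all 6 in wild-type mice, with medians of 0.69 in null and 0.71 in wild-type mice. Its reductase Mecr rose by 0.84 in null and 0.92 in wild-type mice, and its acyl carrier protein Ndufab1 by 0.97 in null and 0.82 in wild-type mice. Whether the rises of these lists are separate from that of the brown and beige adipocyte markers, given below, was not tested.

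Regulators beyond Srebf1 and Mlxipl were mostly not called. Of 16 measured, 5 rose in null and 4 in wild-type mice and none fell, with medians of 0.06 in null and 0.07 in wild-type mice. Over all genes the share that rose was smaller, 6.88% in null and 8.35% in wild-type mice. Mlycd, the malonyl-CoA decarboxylase that removes the carboxylases' product, rose by 0.82 in null and 0.77 in wild-type mice (SE 0.10 each). Insig1, the SREBP retention protein and a known SREBP target, rose by 0.82 in null and 0.88 in wild-type mice (SE 0.16 each). Mlx, the binding partner of ChREBP, rose by 0.30 in null and 0.57 in wild-type mice. Nr1h3 (LXRα) changed by 0.32 in null mice (limma adjusted p = 0.0301) and by 0.26 in wild-type mice, where it did not pass (limma adjusted p = 0.0694).

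Elongation and desaturation genes were mixed. Of 16 other elongase, desaturase and elongation-cycle genes measured, 4 rose and 2 fell in each genotype, with a median of 0.19 in null and in wild-type mice. Among all genes, 6.88% rose and 6.33% fell in null mice, and 8.35% rose and 8.3% fell in wild-type mice. Elovl3, an elongase of very long chains, rose by 6.77 in null and 6.87 in wild-type mice (SE 0.23 each). The elongation-cycle reductases Hsd17b12 and Tecr and the dehydratase Hacd2 rose as well, Hsd17b12 by 1.22 in null and 1.12 in wild-type mice, Tecr by 0.55 in null and 0.48 in wild-type mice and Hacd2 by 0.21 in null and 0.45 in wild-type mice. The elongase Elovl1 changed by −0.45 in null and −0.34 in wild-type mice, and Fads3, of the desaturase family, by −0.39 in null and −0.38 in wild-type mice.

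Other known targets of ChREBP and SREBP-1, outside fatty acid synthesis, divided. Of 10 measured, 3 rose in both genotypes, Gpd1, Lpin1 and Gpam, all of glycerolipid synthesis, and the medians were 0.12 in null and 0.11 in wild-type mice. The share of all genes that rose was 6.88% in null and 8.35% in wild-type mice. Gpd1 rose by 0.97 in null and 1.09 in wild-type mice, Lpin1 by 0.54 in null and 0.66 in wild-type mice, and Gpam by 0.58 in null and 0.87 in wild-type mice. Txnip, a ChREBP target that restrains glucose uptake, fell in wild-type mice (−0.55, SE 0.10, limma adjusted p = 0.000451). In null mice its change was −0.21 (SE 0.10, limma adjusted p = 0.206), and the difference did not pass (0.34, limma adjusted p = 0.963). Pnpla3, a lipid droplet acyltransferase and hydrolase, was the single gene of these lists called between genotypes. At 28 °C it had 9.03 ± 0.59 log2 units in null and 10.15 ± 0.31 in wild-type mice (SD, n = 6 each; change −1.12, SE 0.21, limma adjusted p = 0.0190). At 5 °C it had 9.49 ± 0.31 in null and 10.57 ± 0.21 in wild-type mice (SD, n = 5 each; change −1.08, SE 0.23, limma adjusted p = 0.0712). Whether the Pnpla3 difference comes from the loss of PPARα itself was not tested.

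**Figure D4:**
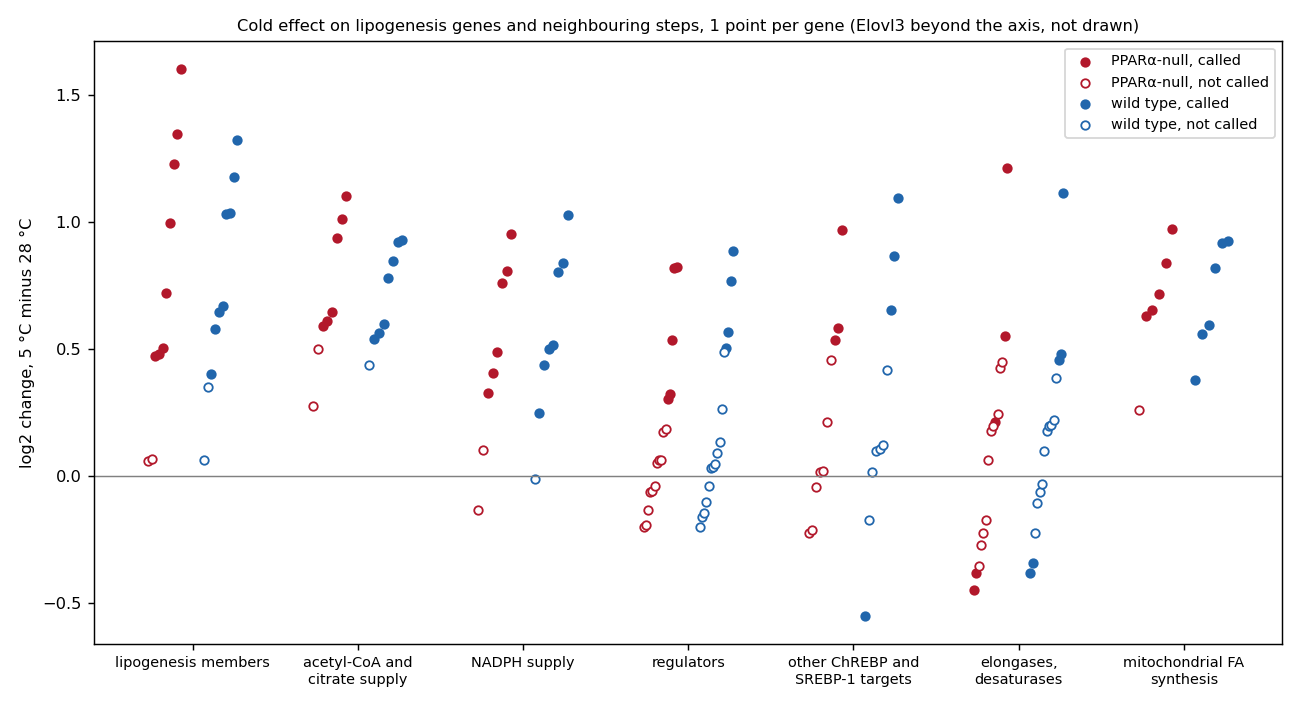
Log2 change from cold (5 °C minus 28 °C) of each gene of the lipogenesis list and of neighbouring lists, 1 point per gene and genotype, filled where limma called the gene; Elovl3, at 6.77 in null and 6.87 in wild-type mice, lies beyond the axis and is not drawn. Acetyl-CoA, NADPH and mitochondrial fatty acid synthesis genes are nearly all above 0, whereas regulators, other targets and elongases fall on both sides.

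Adipocyte markers were high in every pad. In the cold, brown and beige markers rose as most members did, whereas macrophage, preadipocyte and fibroblast markers fell. The mean of 8 adipocyte markers was 10.99 in the null group at 5 °C and 11.08 at 28 °C (SD 0.09 at 5 °C and 0.08 at 28 °C). In the wild-type group it was 10.93 at 5 °C and 11.03 at 28 °C (SD 0.12 at 5 °C and 0.07 at 28 °C). Of the 8, none rose, 2 fell in null mice and 1 fell in wild-type mice. Adipoq, the gene of adiponectin, fell in both genotypes (−0.27 in null and −0.36 in wild-type mice). Lep, the gene of leptin, fell in null mice (−0.83, SE 0.25, limma adjusted p = 0.0285) and changed by −0.66 in wild-type mice without passing (SE 0.25, limma adjusted p = 0.0753). All 6 brown and beige markers rose in each genotype, with list means of 9.43 to 9.88 in null mice at 5 °C, against 5.96 to 6.80 in null mice at 28 °C. In wild-type mice they were 9.51 to 9.87 at 5 °C, against 6.09 to 6.66 at 28 °C. Ucp1, the uncoupling protein of these cells, changed by 6.90 in null and 7.05 in wild-type mice (SE 0.25 each). All 9 macrophage and all 9 preadipocyte and fibroblast markers fell in each genotype. The macrophage mean was 8.19 to 8.33 in null mice at 5 °C, against 8.70 to 9.01 in null mice at 28 °C, and 8.08 to 8.43 in wild-type mice at 5 °C, against 8.73 to 9.02 at 28 °C. The preadipocyte and fibroblast mean was 9.15 to 9.26 in null mice at 5 °C, against 9.73 to 9.97 in null mice at 28 °C, and 9.10 to 9.33 in wild-type mice at 5 °C, against 9.80 to 10.08 at 28 °C. Of the remaining lists, 0 of 9 muscle, 0 of 8 B and T cell and 0 of 6 epithelial markers passed. Of 6 endothelial markers 1 fell in null mice, and 1 rose and 1 fell in wild-type mice. The part these shifts have in the members' changes was not tested.

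Between mice of a group, the members were also set against the 8 cell type means, 80 relations chosen after seeing the data. Elovl6 followed the brown and beige mean, with r = 0.78 (permutation p = 0.00036, adjusted p = 0.0288) and rho = 0.76 (permutation p = 0.0005, adjusted p = 0.0400), and 0.65 without the 2 farthest mice. Acly ran against the epithelial mean, with r = −0.66 (permutation p = 0.00112, adjusted p = 0.0448) and rho = −0.64 (permutation p = 0.00163, adjusted p = 0.0435), and −0.54 without the 2 farthest mice. That mean was low, at 3.37 to 3.89 log2 units over the arrays, below the array medians of 4.63 to 4.77. Whether it follows epithelial cells was not tested. By Pearson's r no other relation passed, and by rho the relation of Acacb with the brown and beige mean passed as well (0.67, permutation p = 0.0016, adjusted p = 0.0435; r = 0.69, permutation p = 0.00199, adjusted p = 0.0531). No member passed with the adipocyte, muscle, lymphocyte, macrophage, fibroblast or endothelial mean.

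Ppara itself, read from a single probe set, stood at 6.30 ± 0.56 in null and 6.59 ± 0.34 log2 units in wild-type mice of the 5 °C groups (SD, n = 5 each). At 28 °C it was 4.88 ± 0.43 in null and 4.72 ± 0.23 in wild-type mice (SD, n = 6 each). Neither genotype difference passed. No source used here places its probes against the deleted stretch, so they do not check the genotype labels.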

How the data were processed

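Inguinal white fat of 22 male mice, 1 mouse an array, was read on an Affymetrix whole-transcript array from 100 ng of RNA with RIN above 8, per the labels. The deposited log2 values, 41345 probe sets, were made by the authors with RMA, per the submitters' processing notes, which name neither its version nor an annotation build. Probe sets with a single symbol (23521; 1814 had several) were reduced to the brightest on average per gene, giving 22180 genes. No further scaling and no filter on low signal were applied.

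All 4 groups entered 1 limma fit with group means and no covariate (R 4.3.3, limma 3.58.1), with 18 residual and 3.35 prior degrees of freedom. P-values were adjusted by Benjamini-Hochberg over all genes, with a threshold of 0.05. The effects compared were cold minus 28 °C in each genotype, their difference and average, and null minus wild type at each temperature. The fit was tested on simulated data. Correlations used group-centred values and 100000 permutations within groups (Python 3.11.15, numpy 2.4.6, pandas 2.3.3, scipy 1.17.1; figures with matplotlib 3.10.9).

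Named were the 10 members, Ppara, Ucp1, up to 4 genes of each pathway list by smallest p in the average cold effect, any called against their list's direction or between genotypes, up to 2 markers of a cell type, and, per member, up to 3 of the 17435 genes most like it, passing over predicted genes, small RNAs and olfactory and vomeronasal receptors. Members, lists and tests were chosen with earlier results of these data known, and the relations to cell type means after seeing the values. Alternatives were other gene summaries, normalizations, filters, weights, covariates, a replicate block and leaving out each array. With 5 or 6 arrays a group, their number limits the precision.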

Additional observations from a re-analysis of the deposited data

Results flagged for a closer look

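Among 72 sets of values in 1 group, for the members and the cell type lists, 2 held a mouse far from the others. Chance gives about 1 in 20, so these 2 are no more than chance gives. Fasn stood at 12.42 log2 units in replicate 2 of the null mice at 5 °C, whereas the other 4 lay between 12.70 and 12.78. Without that array the cold effect on Fasn in null mice was 0.54 (limma adjusted p = 0.0115). Me1 stood at 11.52 in replicate 3 of the wild-type mice at 5 °C, whereas the other 4 lay between 11.91 and 12.06. Without it the cold effect on Me1 in wild-type mice was 1.12 (limma adjusted p = 0.000126).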

How the results depend on the processing

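No value changed direction past the threshold under any alternative run. Fitting only the groups compared called 5 members in null mice (8 with all groups), losing Acaca, Fasn and Mlxipl (limma adjusted p = 0.0641, 0.0774 and 0.0589), and 19 genes between genotypes at 5 °C (33 with all groups); the difference and the average use all groups anyway. Leaving out an array gave 7 to 8 members called in null mice, 6 to 8 in wild-type mice and 8 to 9 on average, and 0 for the difference and for both genotype comparisons. It gave 2320 to 2802 genes in null mice, 3150 to 3571 in wild-type mice, 5136 to 5467 on average, 23 to 36 between genotypes at 5 °C and 31 to 45 at 28 °C. The difference had 0 genes, and 1 without replicate 3 of the wild-type mice at 5 °C. In null mice Mlxipl was the member lost, in 4 of 11 fits. Those fits left out null replicate 2 or 4 at 28 °C, or null replicate 1 or 4 at 5 °C. Pairs of members called ran from 20 to 26 without an array. Quantile normalization called 6 members in wild-type mice, and the muscle and lymphocyte covariates 7 in null and 6 in wild-type mice. Subtracting array medians moved the split to 1767 higher and 1039 lower in null mice (1525 and 1405 otherwise), 2368 and 1354 in wild-type mice (1852 and 1841), and 3325 and 2206 on average (2586 and 2913). With the replicate number as a block, 8 members were called in null mice, 9 in wild-type mice and 8 on average. What the numbers mark is not stated, and no pairing by them was detected. The 31 same-numbered pairs correlated at −0.01 on average (−0.25 to 0.35), and 4 of 22 arrays were best with their own number. The causes of these shifts were not tested.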
